A study of Mus musculus with 6 samples.

Results

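The genes described here make and use small regulatory RNAs in the mouse oocyte. They are the 9 entries of the deposited table that carry the names Dicer1, Drosha, Dgcr8, Tarbp2, Prkra, Ago1, Ago2, Ago3 and Ago4, out of 22416 genes in all, and the rule that picks them uses their names alone. Ribosome footprints, pieces of mRNA protected by a ribosome during digestion, were sequenced by Ribo-lite from pools of 500 oocytes. There were 6 libraries, with n = 2 in each of 3 groups. WT_FGO were wild-type fully grown oocytes at the germinal vesicle (GV) stage. WT_MII were wild-type oocytes at metaphase II (MII) after culture, taken here as the controls of the treated group. Treat_MII were wild-type oocytes at MII whose label says only that they were treated. In the study's methods the treatment is BYBX, a ligand that holds RNA G-quadruplexes (rG4s, folded G-rich stretches of RNA) in their folded state, and control GV and MII oocytes received its solvent, DMSO. Per the methods, the oocytes came from 4-week-old females injected with 5 IU of pregnant mare serum gonadotropin 44 h before collection. The design asked which mRNAs gain or lose ribosomes during maturation, and whether stabilized rG4s change this.

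MicroRNA precursors are first cut in the nucleus by the microprocessor, in which DROSHA is the nuclease and DGCR8 its RNA-binding partner. DICER1 then cuts the exported hairpins, and it also cuts long double-stranded RNA into endogenous small interfering RNAs (siRNAs), assisted by the double-stranded RNA-binding proteins TARBP2 and PRKRA. Argonaute proteins carry the finished small RNA to its target, and AGO2 is the Argonaute best known for slicing targets. Mouse oocytes are known for an active endogenous siRNA pathway, for a weak microRNA pathway, and for a shortened Dicer isoform made from a retrotransposon promoter within the gene. The deposited table has a single Dicer1 entry, so the isoforms cannot be told apart here.

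Values are FPKM, footprints scaled to the coding length and to the reads of the same library, so a level is a share of the library's footprints. Less of an mRNA, fewer oocytes translating it, fewer footprints per oocyte and a larger share taken by other genes cannot be told apart. Footprints were not divided by mRNA amounts here, so a change in level need not be a change in translation per mRNA. The depth was low. The library constants were 94309 and 107251 reads in WT_FGO, 164972 and 230907 in WT_MII, and 331304 and 275604 in Treat_MII, so depth rose along with the groups. All 10 oocyte markers had footprints in every library. Their summed level was 37438 to 55875 FPKM in WT_FGO, 19413 to 23339 in WT_MII and 29531 to 30321 in Treat_MII. Of the 10, 9 were lower in WT_MII than in WT_FGO and 1, Oosp1, was higher. Oosp1 went from 122 and 185 FPKM in WT_FGO to 11263 and 15029 FPKM in WT_MII, a large part of the WT_MII sums. The 14 markers of granulosa and cumulus cells summed to 862 and 1653 FPKM in WT_FGO, 2233 and 419 in WT_MII, and 330 and 355 in Treat_MII. Of these 14, between 4 and 9 were at 0 in a library and Tnfaip6 was at 0 in every library. The part of these cells in the results was not tested. The labels do not say whether the libraries of a group came from separate collections, so p-values measure only the spread between these libraries, which may be technical.

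Dicer1 held most of the footprints on these genes in every library, and Ago3 was the only other member that passed 20 FPKM in any library. The 9 genes together had 85.3 ± 8.95 FPKM (SD, n = 2) in WT_FGO, 358 ± 31.5 FPKM (SD, n = 2) in WT_MII and 318 ± 9.28 FPKM (SD, n = 2) in Treat_MII. Without Dicer1 and Ago3 the remaining 7 genes summed to 22.4 ± 11.8, 23.2 ± 16.3 and 15.6 ± 11.2 FPKM (SD, n = 2 each), and these sums overlapped between the groups. In order of level per length, Dicer1 stood above Drosha in WT_FGO with ranges that did not overlap, while the neighbours from Drosha downwards did not differ beyond their spread. In WT_MII the order was Dicer1, Ago3 and Drosha, the first pair each separate from the next gene while Drosha overlapped Ago1, and in Treat_MII it was Dicer1, then Ago3, then all others.

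**Figure D1:**
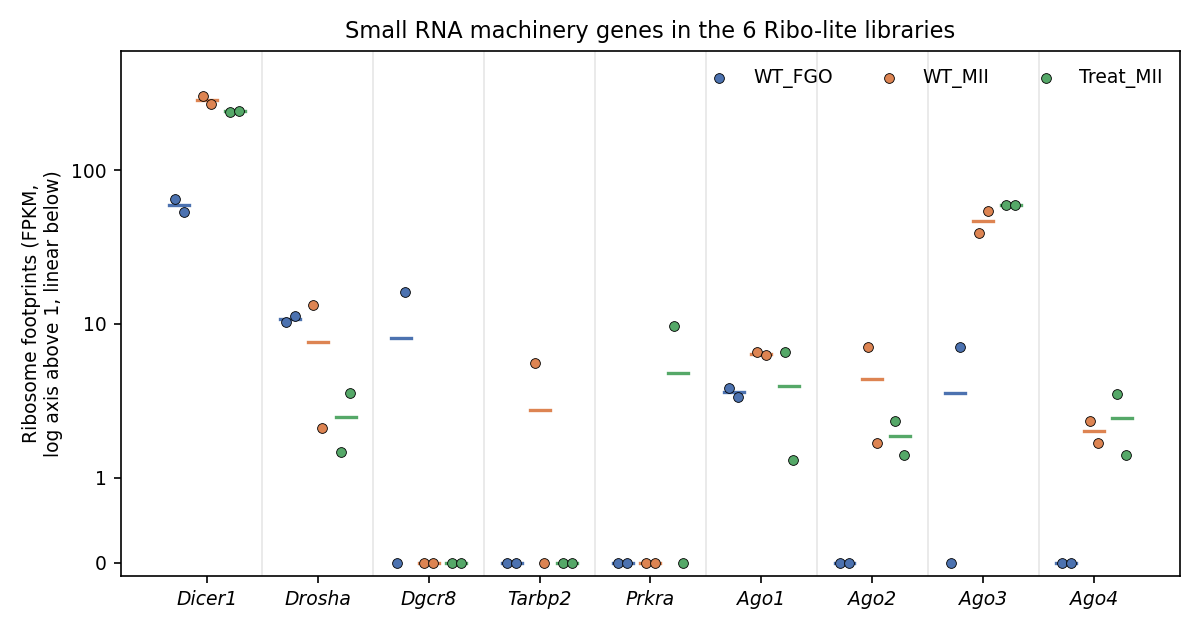
FPKM of the 9 genes in each of the 6 libraries, on an axis that is logarithmic above 1 and linear below. Points are libraries (n = 2 per group, coloured by group) and short lines are group means. Dicer1 and Ago3 were higher in all 4 MII libraries than in both WT_FGO libraries, and the other 7 genes stayed under 20 FPKM in every library.

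Dicer1 rose during maturation. The Dicer1 gene lies on chromosome 12 (GRCm38, 104687742 to 104751952, minus strand). Its level was 64.9 and 53.8 FPKM in the WT_FGO libraries, 306 and 270 FPKM in the WT_MII pair and 241 and 244 FPKM in the Treat_MII pair. Every MII library was thus more than 3 times as high as either WT_FGO library. These values rested on 35 and 33 reads in WT_FGO, 289 and 356 in WT_MII, and 457 and 385 in Treat_MII. The group means were 59.4 ± 7.84 FPKM in WT_FGO and 288 ± 26.0 FPKM in WT_MII (SD, n = 2 each), a ratio of 4.85. Among the 22416 genes it stood at rank 1793 and 2376 from the top in WT_FGO and at rank 368 and 448 in WT_MII. On the log2(FPKM + 1) scale the increase was 2.26 ± 0.32 (SE), with a 95% interval of 1.49 to 3.04 and an adjusted p of 0.0153 in limma. In the same fit 6.76% of the 15129 genes tested were called in either direction and 3.67% were called higher and 3.09% lower, and Dicer1 was the only one of the 8 tested members to be called. The median of all tested genes fell by 0.44 in this comparison, and with each library centred on its median log2 ratio the Dicer1 increase was 2.73. The call rested in part on the spread estimated from the treated libraries: without Treat_MII replicate 1 or replicate 2 the adjusted p was 0.111 in both cases, and with only WT_FGO and WT_MII in the fit it was 0.124, the highest of the 15 alternatives tried, the lowest being 3.48e-09 with precision weights. By counting error alone, the ratio of reads per library read was 4.83 (exact 95% interval 3.76 to 6.30). The value is scaled to the full coding length of 5718 bases, and none of its 28-base coding words occurs in another annotated transcript, so no annotated copy of that length shares its reads.

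The 3′ end of an mRNA takes part in its recruitment to ribosomes during maturation: a cytoplasmic polyadenylation element (CPE) close to the poly(A) signal is the best-known sign of it. The motif TTTTAT or TTTTAAT within 100 bases upstream of AATAAA or ATTAAA was found on the transcript strand for Dicer1 and Ago2, 2 of the 9 members, against 12.6% of the 14883 tested genes with an annotated coding transcript. A poly(A) signal in the last 50 bases, which the search needs, was found for 6 of the 9 members and for 72.9% of the tested genes. The windows of the pair of genes with the most footprints are shown because one holds the motif and the other does not. Capitals mark the CPE where there is one and the poly(A) signal, and each window is the 30 bases that end with the signal, 5′ to 3′, in GRCm38.
Dicer1 (chr12:104687757-104687786, minus strand, 3′ UTR): tttttctTTTTAATaattgtagtcAATAAA
Ago3 (chr4:126332746-126332775, minus strand, 3′ UTR): tgtgattatgagaagcagaaagctAATAAA
In Dicer1 the motif starts 17 bases before the signal. In Ago2 it starts 70 bases before, outside such a window. A match is a description of the letters and not a measured site, and its absence near the annotated end of Ago3 says nothing of other ends that the mRNA may use.

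Among the Argonautes, Ago3 carried most of the footprints in the MII oocytes. The gene lies on chromosome 4 (126331704 to 126429556, minus strand) beside Ago1 (126435012 to 126468583) and Ago4 (126489541 to 126533472), all on the minus strand, whereas Ago2 lies on chromosome 15 (73095844 to 73184935, minus strand). Ago3 was at 0 and 7.10 FPKM in the fully grown oocytes, 39.2 and 54.4 FPKM in the WT_MII pair and 59.8 and 59.4 FPKM in the Treat_MII pair. The WT_FGO and MII values did not overlap, and the Treat_MII libraries lay close together. The reads behind these levels were 0 and 2 in WT_FGO, 17 and 33 in WT_MII, and 52 and 43 in Treat_MII. The maturation difference was 4.05 ± 1.04 (SE) on the log2(FPKM + 1) scale, with a 95% interval of 1.52 to 6.59, and it did not pass after adjustment (limma adjusted p = 0.0786). By counting error alone, 50 reads against 2 gave a ratio of 12.7 (exact 95% interval 3.34 to 108). The adjusted p was 0.0334 with median centring, 0.0367 with quantile normalization and 0.00278 with precision weights from the recovered reads, and it was also under 0.05 without either WT_FGO library (0.0364 and 0.00961, with differences of 2.54 and 5.56). Over all 15 alternatives it ranged from 0.00278 to 0.306. The size therefore turned on which WT_FGO library was kept, the one with no read or the one with 2.

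The 4 Argonautes together had 7.14 ± 4.70 FPKM in WT_FGO, 59.6 ± 6.24 FPKM in WT_MII and 67.8 ± 6.09 FPKM in Treat_MII (SD, n = 2 each). Ago3 made up 78.1% ± 9.83 (SD, n = 2) of that level per length in WT_MII and 88.2% ± 7.54 (SD, n = 2) in Treat_MII. In reads, it was 50 of 63 in WT_MII (79.4%, exact Clopper-Pearson 95% interval 67.3% to 88.5%) and 95 of 109 in Treat_MII (87.2%, 79.4% to 92.8%). In WT_FGO it was 2 of 4 reads (exact interval 6.76% to 93.2%), which sets no order among the Argonautes of the fully grown oocyte. Here and below the intervals on reads allow for counting error alone. They take reads as independent, so reads copied from the same molecule by PCR would make them too narrow.

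**Figure D2:**
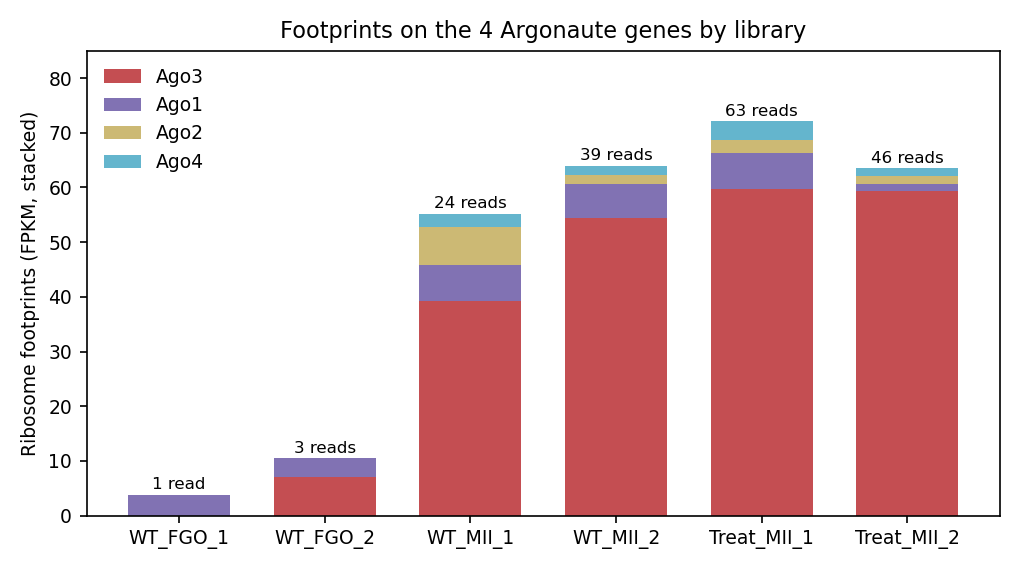
Stacked FPKM of the 4 Argonaute genes in each library, with the number of Argonaute reads above each bar. The total was 3.82 and 10.5 FPKM in WT_FGO and 55.2 to 72.1 FPKM in the 4 MII libraries, where Ago3 (red) formed most of each bar.

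Reads on Argonautes can be hard to place, because the genes resemble each other. Aligned pairs of the 4 coding sequences were 72.6% to 76.4% identical, and Ago1 and Ago3 share an unbroken run of 170 coding bases. A stretch of that run is shown with the matching stretches of the other members, from GRCm38, all within a single coding exon. Capitals mark bases that differ from Ago3.
Ago3 (chr4:126363728-126363757): aaatacgcacagggggcagacagcgtggag
Ago1 (chr4:126448849-126448878): aaatacgcacagggggcagacagcgtggag
Ago4 (chr4:126510033-126510062): aaGtaTgcTcaAggTgcagacagcgtggag
Ago2 (chr15:73121146-73121175): aaatacgcacagggTgcagacagTgtggag
A footprint from this stretch could come from Ago1 or Ago3, while 5 bases separate Ago4 and 2 separate Ago2. Over the whole coding sequence 5.59% of the 28-base words of Ago3 occur in another gene, against 6.64% for Ago1, 0.430% for Ago4 and 37.4% for Ago2, whose words are shared mostly with predicted genes. How the authors placed reads with several matches is not given in the sources used here, so the split between Ago1 and Ago3 is uncertain over that run, and the level of Ago2 may be understated or shared.

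Ago1, Ago2 and Ago4 had between 0 and 6 reads in any library. Ago1 was at 3.82 and 3.36 FPKM in the fully grown oocytes, 6.55 and 6.24 FPKM in the WT_MII pair and 6.52 and 1.31 FPKM in the Treat_MII pair. Its WT_MII libraries lay above both WT_FGO libraries, but on 7 reads against 2, and the maturation difference of 0.69 had an adjusted p of 0.711 in limma. Ago1 was the only member whose level did not give whole reads with the annotated coding length, so its reads take the lowest level as 1 read. Ago2 was at 0 in both WT_FGO libraries, 7.05 and 1.68 FPKM in the WT_MII pair and 2.34 and 1.41 FPKM in the Treat_MII pair. Ago4 was also at 0 in both WT_FGO libraries and was at 2.35 and 1.68 FPKM in the WT_MII pair and 3.51 and 1.40 FPKM in the Treat_MII pair. A count of 0 in WT_FGO allows up to 3 reads, which for Ago2 is 12.3 and 10.8 FPKM, above every level of Ago2 in MII. No library held more than 3 reads of either gene, so no fold is given and a difference was not detectable at this depth. The WT_MII libraries were both above the WT_FGO pair for 5 of the 8 tested members (Dicer1, Ago1, Ago2, Ago3 and Ago4), against 15.3% of all tested genes, and 25.8% of all tested genes had the reverse. Ago2 and Ago4 passed the filter on low values only through MII libraries, Prkra only through 1 treated library and Dgcr8 only through 1 WT_FGO library, so that count is a description.

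**Figure D3:**
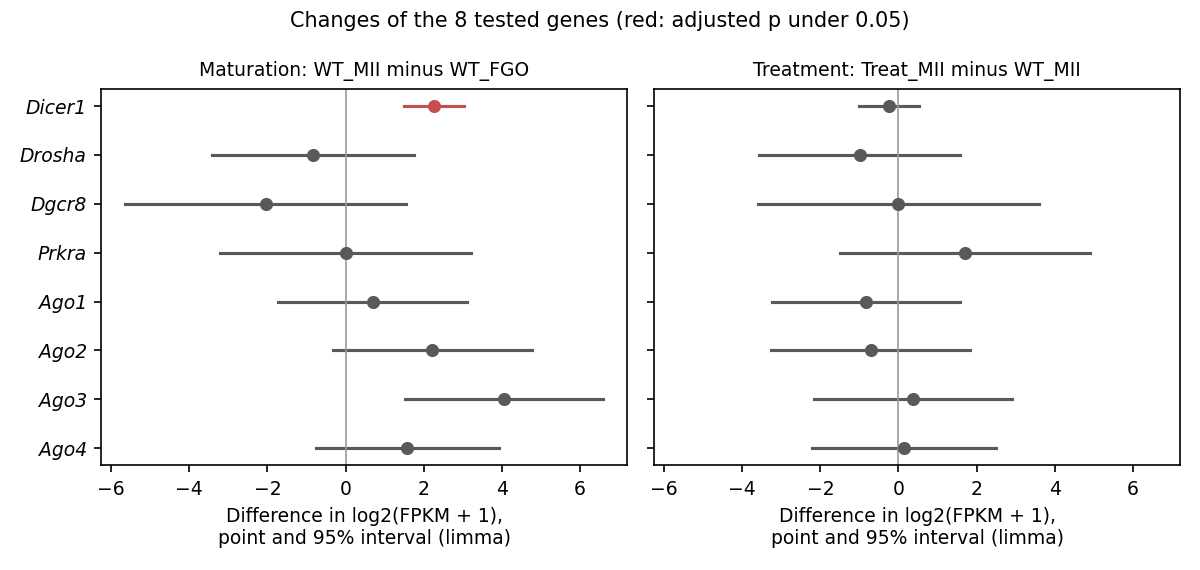
Differences in log2(FPKM + 1) with 95% intervals from limma for the 8 tested genes, for maturation (left) and treatment (right). Only the Dicer1 difference of 2.26 in maturation passed an adjusted p under 0.05 (red), and every treatment interval crossed 0. The maturation interval of Ago3, which is not adjusted for the number of genes tested, also lay above 0.

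The microprocessor genes were low, and neither passed the test with all 6 libraries in the limma fit described above. Drosha (chromosome 15, 12824815 to 12935291, plus strand) was at 10.3 and 11.3 FPKM in the fully grown oocytes, 13.2 and 2.10 FPKM in the WT_MII pair and 1.47 and 3.52 FPKM in the Treat_MII pair. The WT_MII libraries fell on both sides of WT_FGO, while both Treat_MII libraries lay below both WT_FGO libraries. The maturation difference was -0.83 (limma adjusted p = 0.666), and it was 0.27 without WT_MII replicate 2. Drosha had 9, 11 and 6 reads in the 3 groups, and by counting error alone the ratio of WT_MII to WT_FGO was 0.622 (exact 95% interval 0.234 to 1.70). Dgcr8 (chromosome 16, 18253948 to 18289246, minus strand) had 4 reads in a single library, WT_FGO replicate 2, where it was at 16.1 FPKM, and it was at 0 in the other 5 libraries. Taking 3 reads per library as the limit of a count of 0, its mean of 8.04 FPKM in WT_FGO was at least 1.20-fold higher than in WT_MII, a bound that rests on that library alone. That bound takes the WT_FGO mean as exact and leaves out its own counting error. The fitted difference was -2.05, with a 95% interval of -5.64 to 1.54 (limma adjusted p = 0.490). Without WT_FGO replicate 1, the library with the Dgcr8 reads stands alone in its group, and the difference was -4.09 against either MII group. All MII libraries were at 0, so Dgcr8 had no spread of its own in that fit. With precision weights Dgcr8 passed in Treat_MII against WT_FGO (-3.18, limma adjusted p = 0.0278). There a count of 0 takes a lower value in a deeper library. Prkra, with no read in WT_FGO or WT_MII, had a difference of -0.96 in maturation with these weights, so depth enters the -3.18.

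The partners of Dicer had almost no footprints. Tarbp2 (chromosome 15, 102518192 to 102523676, plus strand) had 1 read, in WT_MII replicate 1, which made 5.54 FPKM. Its mean over all libraries was below the filter of 1 FPKM, so it was the only member not tested, and 76.5% of its 28-base coding words occur in a pair of predicted genes, which can take or share its reads. Prkra (chromosome 2, 76629898 to 76648015, minus strand) had 3 reads, all in Treat_MII replicate 1 (9.64 FPKM). Prkra shares no 28-base word with another gene, but with a coding length of 939 bases a count of 3 reads corresponds to 33.9 and 29.8 FPKM in the WT_FGO libraries. A level of Prkra above that of every other member but Dicer1 could thus have gone unseen in fully grown oocytes.

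Treatment was examined by comparing Treat_MII with WT_MII. No member passed the test, as was the case for all 15129 genes (0.0% called, with 881 at an unadjusted limma p under 0.05 and a smallest adjusted p of 0.249). With precision weights 165 genes were called, none of them a member. Dicer1 was lower in both Treat_MII libraries than in both WT_MII libraries, at 243 ± 2.17 FPKM against 288 ± 26.0 FPKM (SD, n = 2 each). The difference was -0.24, with a 95% interval of -1.02 to 0.53 (limma adjusted p = 0.987). Counting error alone gave a ratio of 0.852 (exact 95% interval 0.768 to 0.945), which leaves out the spread between libraries. Ago3 was higher in both Treat_MII libraries than in both WT_MII libraries, at 59.6 ± 0.252 FPKM against 46.8 ± 10.7 FPKM (SD, n = 2 each). Its difference was 0.36, with an interval of -2.17 to 2.89 (limma adjusted p = 1), and the counting ratio was 1.24 (exact 95% interval 0.871 to 1.78). Of all tested genes, 15.6% had both treated libraries below both controls and 16.2% had both above, so 1 of 8 members in each class is near the background. The remaining members had differences of -0.99 for Drosha, -0.83 for Ago1, -0.71 for Ago2, 0.14 for Ago4, 0 for Dgcr8 and 1.71 for Prkra. Their intervals all held 0 and reached beyond 1 in each direction on the log2 scale. For Ago2, Ago4, Dgcr8 and Prkra no library of either group held more than 3 reads, the floor. Their fitted differences and signs are thus not measured changes, and the 0 of Dgcr8 comes from no read in either group. For Drosha the sign turned without WT_MII replicate 1 (0.11), and for Ago1 without Treat_MII replicate 2 (0.025). It turned for Ago2 without WT_MII replicate 1 (0.08), and for Ago4 with quantile normalization (-0.19), without Treat_MII replicate 1 (-0.32) and without WT_MII replicate 2 (-0.024). An exact permutation test of 2 libraries against 2 cannot give a p below 0.333, so no gene could pass it.

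Since BYBX binds rG4s, the members were searched for the G-quadruplex motif, defined as 4 stretches of 3 or more G separated by 1 to 7 bases. It was in the 5′ UTR of 0 of the 9 members, against 6.93% of the tested genes, in the coding sequence of 0 members against 4.52%, and in the 3′ UTR of 2 members, Ago1 and Ago2, against 10.5%. The 3′ UTRs of the members were long, with a median of 3682 bases against 848 over the tested genes. The 3′ UTR of Ago3 was 12742 bases long in the annotation and held no match. One match of each of these genes is shown, with the G runs in capitals, because Ago1 and Ago2 were the only members that held any.
Ago1 (chr4:126438692-126438710, minus strand, 3′ UTR): GGGGtGGGGtgtGGGtGGG
Ago2 (chr15:73100849-73100871, minus strand, 3′ UTR): GGGGattGGGctGGGcttaGGGG
A further match in Ago2 overlaps the one shown, and those in Ago1 overlap it or lie just downstream. These genes had 7 and 4 reads in WT_MII and 7 and 3 reads in Treat_MII, too few to compare. The best-measured members, Dicer1 and Ago3, held no match in any region searched. Such a match is only letters, and no folding was measured here.

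Set against fully grown oocytes, the treated MII oocytes also had more footprints on Dicer1 and Ago3 in both libraries, a comparison that shares the WT_FGO libraries with that of maturation. Dicer1 was 4.09-fold higher in Treat_MII than in WT_FGO by the ratio of means, a difference of 2.02 ± 0.32 (SE, limma adjusted p = 0.0276), where 3.85% of all tested genes were called and 2.86% were called higher. This call was lost in 7 of the 15 alternatives, among them the removal of any MII library, with adjusted p between 0.0664 and 0.114. For Ago3 the difference was 4.41 ± 1.04 (SE, limma adjusted p = 0.0841), and 95 reads against 2 gave a ratio of 15.8 (exact 95% interval 4.25 to 132). Ago3 passed with median centring (limma adjusted p = 0.0369), quantile normalization (0.0357) and precision weights (0.000618), and without either WT_FGO library (0.0309 and 0.00855, with differences of 2.90 and 5.92), in a range over all 15 alternatives of 0.000618 to 0.398. Both Treat_MII libraries lay above both WT_FGO libraries for Dicer1, Ago2, Ago3 and Ago4 (16.6% of all tested genes) and below them for Drosha (28.9%). For Ago2 and Ago4 this was 1 to 3 reads per treated library against 0, within the floor of 3 reads. The treated libraries were also deeper, so their place in that count is a description. The Drosha difference was -1.82 (limma adjusted p = 0.422), and by counting error its ratio was 0.221 (exact 95% interval 0.0648 to 0.697).

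Other genes of these pathways were read by lists. Of the cofactors of the RNA-induced silencing complex, 13 of 14 were tested and 1 was called higher in maturation, against 3.67% of all tested genes. It was Ipo8, an importin that has been linked to Argonaute. Ipo8 went from 73.5 and 67.7 FPKM in WT_FGO to 524 and 516 FPKM in WT_MII, and it was at 390 and 481 FPKM in Treat_MII. Its reads numbered 21 and 22 in WT_FGO and 262 and 361 in WT_MII, and the maturation difference was 2.86 (limma adjusted p = 0.00526). Ipo8 thus stood higher per length than Dicer1 in every library, on the same side of WT_FGO. The median difference of the list was -0.43, close to the -0.44 of all tested genes, with 6 genes higher and 7 lower, or 7 higher and 6 lower after centring. Those tested included the GW182 proteins (Tnrc6a, Tnrc6b and Tnrc6c) and the chaperones that load Argonautes.

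Of the 17 genes for processing, export, editing, tailing and trimming, 2 were called higher in maturation and none lower, against 3.67% and 3.09% of all tested genes. Lin28a, which binds let-7 precursors, was at 50.7 and 44.6 FPKM in the fully grown oocytes, 174 and 297 FPKM in the WT_MII pair and 188 and 208 FPKM in the Treat_MII pair, a maturation difference of 2.23 (limma adjusted p = 0.0304). The WT_FGO levels of Lin28a rested on 3 reads each. Dis3l2, the exonuclease that degrades tailed let-7 precursors, had no read in WT_FGO, 18.3 and 19.6 FPKM in the WT_MII pair and 12.5 and 6.83 FPKM in the Treat_MII pair. Against 3 reads per WT_FGO library its WT_MII level, taken as exact, was at least 1.68-fold higher (limma adjusted p = 0.0410). The median of this list was 0.22, or 0.68 after centring. By sign, 9 of its genes were higher and 8 lower, or 11 higher and 6 lower after centring. All 3 calls were lost without either Treat_MII library (adjusted p between 0.103 and 0.132), and that of Lin28a also without either WT_FGO library (0.0831 and 0.0961). The call of Dis3l2 was also lost without either WT_MII library (0.124 and 0.111) and without WT_FGO replicate 2 (0.0506). In the treatment comparison no gene of either list passed. The genes with the highest mean FPKM over all libraries were Hsp90ab1 (501 FPKM in WT_MII and 668 FPKM in Treat_MII) and Ipo8 in the first list, and Lin28a and Ddx5 (201 and 170 FPKM) in the second. Of the 28-base coding words of Hsp90ab1 and Ddx5, 24.6% and 64.1% occur in other genes. The list medians were -0.06 and -0.29 against 0 for all tested genes.

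**Figure D4:**
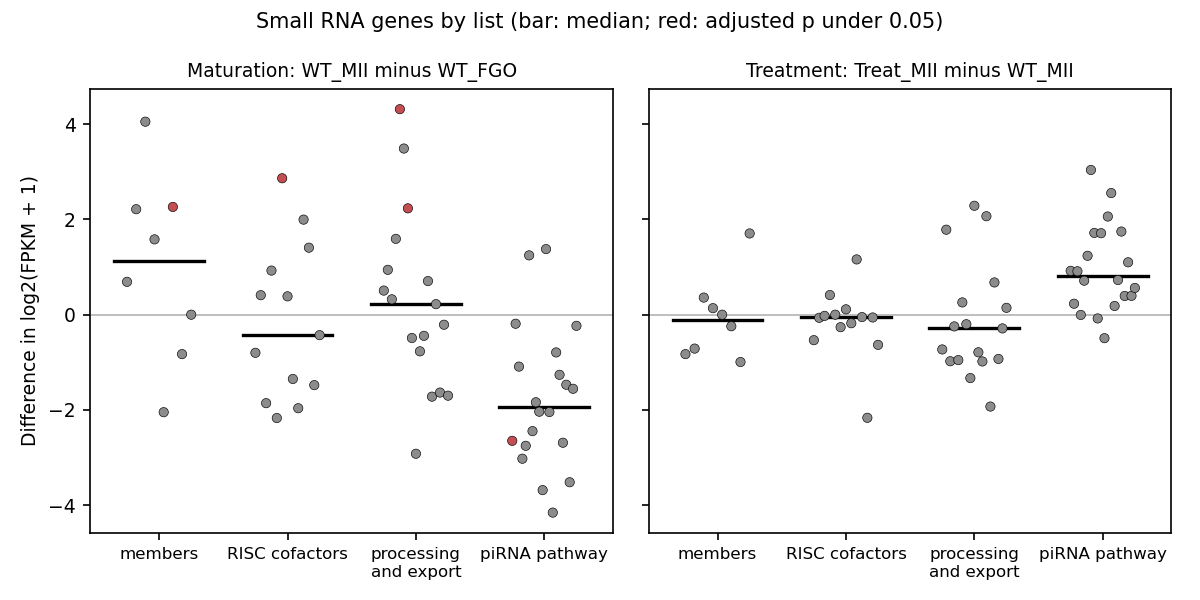
Differences in log2(FPKM + 1) of each tested gene in the 4 lists, for maturation (left) and treatment (right). Points are genes, bars are list medians, and red points passed an adjusted p under 0.05 in limma. In maturation the list medians were -0.43 for the cofactors, 0.22 for processing and -1.94 for the piRNA pathway, and no point was red for treatment.

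Genes with the most similar pattern were looked for among the 6368 genes that averaged 10 FPKM or more, by Pearson's r of log2(FPKM + 1) over the 6 libraries. These r describe 6 values in 3 groups that differ in depth. Nearest to Dicer1 were Usp37, Ccp110 and Clk1 (r = 0.998, 0.998 and 0.997), and 7.21% of the genes searched exceeded 0.95. Clk1, for example, averaged 17.4, 323 and 279 FPKM in WT_FGO, WT_MII and Treat_MII. Nearest to Ago3 were Fpgs, Taf7 and Mob4 (r = 0.999, 0.997 and 0.997), with 5.34% over 0.95. Nearest to Drosha, the member with the next highest mean, were Mtrf1l, Hadh and Dixdc1 (r = 0.988, 0.986 and 0.986), with 0.330% over 0.95. The pattern of Dicer1 was thus shared by many genes. Drosha had 2 to 9 reads in each library, too few for its share to be set against that of Dicer1.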

How the data were processed

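Ribo-lite libraries were made by the authors from mouse oocytes and deposited as a table of FPKM per gene and library, with no spike-in scaling stated. The submitters' processing notes name cutadapt 1.14, Bowtie2 2.2.2, STAR 2.5.3a and the mm10 genome. The counting program, annotation release and handling of molecular identifiers are not given in the sources used here. Of 22442 entries, 26 with a repeated name were left out. Reads were recovered by multiplying FPKM by the union coding length (GENCODE mouse release 21, GRCm38) which came out whole in every library for 96.3% of genes (tolerance 0.02 reads). A count of 3 reads was the floor. log2(FPKM + 1) of the 15129 genes averaging 1 FPKM or more was fitted with limma 3.58.1 (R 4.3.3), all 6 libraries in a single fit with a mean-variance trend, and Benjamini-Hochberg adjusted p under 0.05 was called. This scale understates changes of low genes. The code was tested on simulated data. Same-numbered libraries were not taken as pairs. Named genes were the 9 members, list genes past the test or else the 2 with the highest mean, and the 3 most similar genes of 3 members. Motifs were searched on the longest coding transcript, and sequences came from the GENCODE transcripts. Members and lists were chosen with earlier results of these data known.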

Additional observations from a re-analysis of the deposited data

How the results depend on the processing

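Results were computed in 15 other ways: pseudocount 0.1, no filter, a mean of at least 5 FPKM, median centring, quantile normalization, a replicate block, no trend, precision weights, only the compared groups, and leaving out each of the 6 libraries. The Dicer1 maturation difference kept its sign in all 15 and its call in 11. Its adjusted p was 0.121 without the trend, and its size was 2.13 to 2.40 without single libraries. In maturation 1 member was called, 2 with median centring, quantile normalization or precision weights, 0 without the trend or with only the compared groups, and 0 to 3 without single libraries. All genes called went from 1023 to 328 without the trend, 2378 with precision weights, 0 with only the compared groups (2858 at an unadjusted limma p under 0.05) and 0 to 1842 without single libraries. In treatment, members called ranged from 0 to 1 without single libraries. The single one was Prkra without Treat_MII replicate 2 (adjusted p = 0.0242), where the lone library that holds its 3 reads stands for the group. All genes called for treatment were 165 with precision weights and 0 to 418 without single libraries (363 to 418 without an MII library, 0 without either WT_FGO library). For Treat_MII against WT_FGO, 1 member was called, 2 with median centring or quantile normalization, 3 with precision weights, 0 with the replicate block, without the trend or with only the compared groups, and 0 to 3 without single libraries. All genes called there went from 583 to 59 without the trend, 2834 with precision weights, 32 with only the compared groups and 139 to 1605 without single libraries. Where a library was left out, the lone library of its group was assumed to vary like the other groups. With precision weights a count of 0 takes a lower value in a deeper library. The median of all genes was then -0.92 in maturation and -1.16 for Treat_MII against WT_FGO, against -0.44 and -0.53 in the main fit. Of the genes called with these weights, 1575 and 1984 were lower, so depth enters those counts. The counts of members include Dgcr8 without WT_FGO replicate 1, in maturation and against Treat_MII, where a lone library with reads stood against zeros. They also include Dgcr8 with precision weights in Treat_MII against WT_FGO, where depth enters the difference. Without single libraries, the difference of Drosha ranged from -1.93 to 0.27 in maturation, reversed without WT_MII replicate 2, and from -2.09 to 0.11 in treatment, reversed without WT_MII replicate 1. That of Ago1 ranged from -1.68 to 0.025 in treatment, reversed without Treat_MII replicate 2. Against WT_FGO the difference of Ago1 in Treat_MII was -0.14 and became 0.21 with median centring, 0.18 with quantile normalization and between -0.99 and 0.72 without single libraries, the highest without Treat_MII replicate 2. The causes were not tested. Same-numbered libraries had deviations that correlated at 0.0342, 0.0176 and 0.0189 over 2706 genes with at least 60 reads in all. Counting error at this depth could hide a shared batch, so these values do not settle whether the libraries were paired. With the replicate block the adjusted p of Dicer1 was 0.0307 in maturation and 0.0566 for Treat_MII against WT_FGO. Ago1 has no value with precision weights, and neither Ago1 nor Dgcr8 has one with a mean of at least 5 FPKM. Under these settings, examined for list genes after the data were seen, the maturation call held in 11 of 15 for Ipo8, 9 for Asz1 and 8 each for Lin28a and Dis3l2, and no sign turned. Depth limits Tarbp2, Prkra, Ago2, Ago4 and Dgcr8, each with under 10 reads over all 6 libraries.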

Other observations

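Genes of the piRNA pathway, which silences transposons in germ cells through the PIWI relatives of the Argonautes, mostly had lower levels in WT_MII than in WT_FGO. Of 20 listed genes, all were tested, 18 were lower and 2 higher (16 and 4 after median centring), and their median difference was -1.94 against -0.44 for all tested genes. Of the 15129 genes tested, 8823 were lower and 5747 higher. Only Asz1, which encodes a germ cell protein needed for piRNA production, passed the test. Asz1 went from 208 and 216 FPKM in WT_FGO to 25.5 and 42.5 FPKM in WT_MII, a difference of -2.65 (limma adjusted p = 0.0229), and it was at 65.7 and 61.1 FPKM in Treat_MII. The call of Asz1 was lost without either Treat_MII library (adjusted p of 0.118 and 0.116) and without either WT_FGO library (0.0583 and 0.0611). Between WT_MII and Treat_MII, 17 of the 20 were higher in Treat_MII and 3 lower, with a median of 0.82 against 0 for all tested genes, of which 7189 were higher and 6971 lower, and none passed. The comparison shares the WT_MII libraries with that of maturation, and the treated libraries were deeper. Among the 17, Piwil2, Mael, Pld6, Tdrd7 and Pnldc1 were at 0 in both WT_MII libraries, so their signs rest on the treated libraries alone. The genes with the highest mean FPKM in the list were Gtsf1 (244 and 368 FPKM in the fully grown oocytes, 130 and 14.2 in WT_MII and 79.4 and 65.6 in Treat_MII) and Tdrd1 (208 and 188, 122 and 106, and 117 and 143 FPKM). Summed oocyte markers also fell from WT_FGO to WT_MII and were higher in Treat_MII, as given above, although Oosp1 rose in WT_MII. The part of the markers in these values was not tested.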
